A study of Rattus norvegicus with 4 samples.

Results

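The lysosome is the acidic compartment in which cells break down proteins, complex sugars and lipids that arrive by endocytosis or autophagy. Its soluble enzymes are made in the endoplasmic reticulum, carried there mostly by mannose 6-phosphate receptors, and work at a low pH kept by a proton pump in the lysosomal membrane; many of their genes are targets of the transcription factor TFEB. In the liver, hepatocytes hold many lysosomes, and the resident macrophages, the Kupffer cells, are especially rich in cathepsins and other lysosomal enzymes.

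The genes described here are 41 lysosomal genes, listed by symbol: 11 proteases, 11 glycosidases and sulfatases, 5 lipid hydrolases, 5 membrane proteins, 4 genes of soluble cofactors and a phosphatase, 4 genes of the proton pump, and the regulator Tfeb. Of these, 40 had a named probe and 38 had a probe above background in at least 1 group, with 51 such probes among 55; in all, 8779 genes and 18664 probes passed that filter. Ppt1 had no named probe and was not analysed here, and Ctsh and Galns were not well above background on any array. RNA came from the liver of male OLETF rats (Otsuka Long-Evans Tokushima Fatty), an inbred strain that eats too much and becomes obese and diabetic on ordinary chow. The thiamine rats had drunk water with 0.2% thiamine (vitamin B1; 2 g per L) for 51 weeks, beginning at an age of 4 weeks. The untreated rats, of the same strain, sex and age, drank water without added thiamine, and both groups ate standard chow. The rats were 55 weeks old and had fasted for 16 h when the liver was collected, so that every value is of fasted liver. Each group had 8 rats, of which 2 were measured, each on a 1-colour CodeLink array of its own. There was no lean or non-diabetic strain among these arrays, and both groups were of 1 sex.

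Levels are given as normalized log2 intensities, on which 1 unit is a 2-fold step, and differences as thiamine less untreated. The number of rats, 2 per group, limits the precision. Between 18176 and 20071 of 33849 gene probes were above background on an array, more on the thiamine arrays. All 10 measured hepatocyte markers were above background on all 4 arrays, with a summed linear intensity of 198263 and 213459 in thiamine rats 1 and 2 and of 198472 and 201777 in untreated rats 1 and 2. In whole liver, more cells of a type and more RNA per cell cannot be told apart. Limma called 0 of the 18664 probes at an adjusted p under 0.05, and at an unadjusted p under 0.05 it had 711 higher (3.81%) and 549 lower (2.94%), so none of the differences below is a called one.

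The lysosomal phospholipase Pla2g15 stood apart from the rest of the list. This enzyme cleaves acyl chains from phospholipids at acidic pH and moves them onto ceramide. Its brighter probe read 11.88 and 11.87 in thiamine rats 1 and 2, and 11.05 and 10.70 in untreated rats 1 and 2. Both thiamine livers thus lay above both untreated ones, and the closest pair of rats was 0.82 apart. The difference was 1.0 ± 0.19 (log2, moderated SE, n = 2 per group), or 2.00-fold, with a 95% interval from 0.58 to 1.42 (limma, unadjusted p = 0.000309, adjusted p = 0.216). A separate, dimmer probe of the same transcript read 8.90 and 9.07 in the thiamine rats and 8.08 and 8.17 in the untreated rats, a difference of 0.86 ± 0.18. The groups were therefore separated on both probes. The spot of the brighter probe on the array of thiamine rat 1 carried a contamination flag; with flagged spots left out the difference was 1.0. Pla2g15 ranked 21st of 8779 genes by its difference. Its difference was known when the list was drawn up, so the test is no independent support for it.

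**Figure D1:**
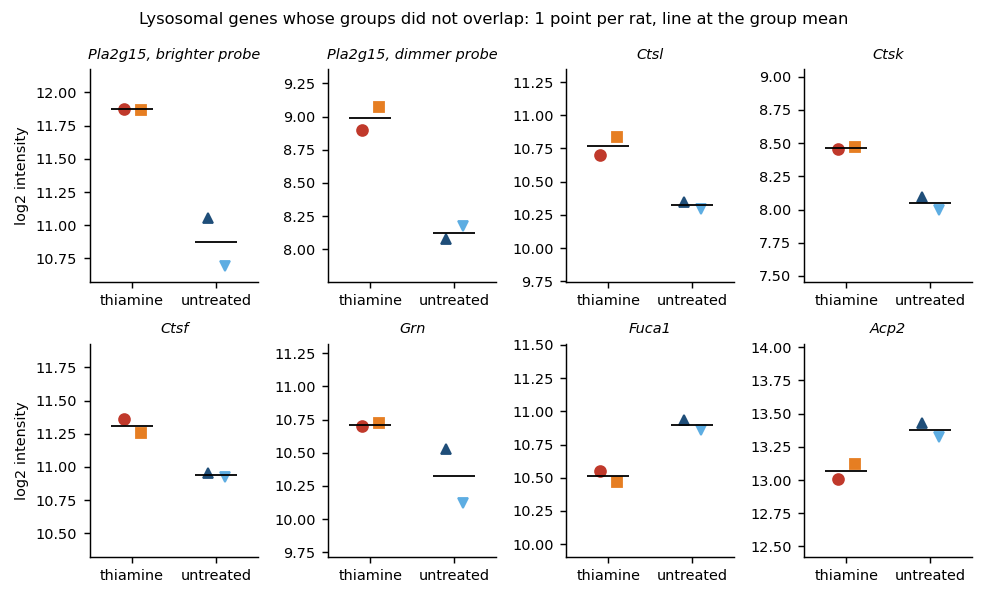
Normalized log2 intensity (vertical axis, 1.6 units in every panel) of both Pla2g15 probes and of 6 further lysosomal genes in the thiamine and untreated groups; each point is 1 rat (circle and square, thiamine rats 1 and 2; triangles up and down, untreated rats 1 and 2) and each line a group mean of n = 2. Pla2g15 is separated by 0.82 and 0.73 between its closest rats on the 2 probes, against 0.35 for Ctsl and 0.36 for Ctsk, while Fuca1 and Acp2 are lower in the thiamine livers.

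For the other 37 measured genes the shifts were small and mostly upward. Over all 38, 29 were higher and 9 lower in the thiamine livers, or 76.3% higher, against 50.7% of all 8779 genes. The median difference was 0.12, and 0.12 without Pla2g15, against 0.0046 over all genes. Of the brighter 4389 genes 48.5% were higher, with a median of -0.0078. The groups did not overlap for 10 genes that were higher, or 26.3%, where 18.6% of all genes had this pattern. They did not overlap for 4 genes that were lower, or 10.5%, against 18.9% of all genes. At an unadjusted p under 0.05 (limma), 3 listed genes were higher (Pla2g15, Ctsl and Ctsk) and 0 lower, against 3.84% and 3.08% of all genes; at an adjusted p under 0.05 it was 0 of 38, against 0% of all genes. For 22 of the 38 genes the difference was smaller than its own SE. It was larger than its SE in 12 higher and 4 lower genes, and in 20.3% and 17.6% of all genes. The 24 genes whose groups overlapped cannot be ordered by treatment at this sample size.

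**Figure D2:**
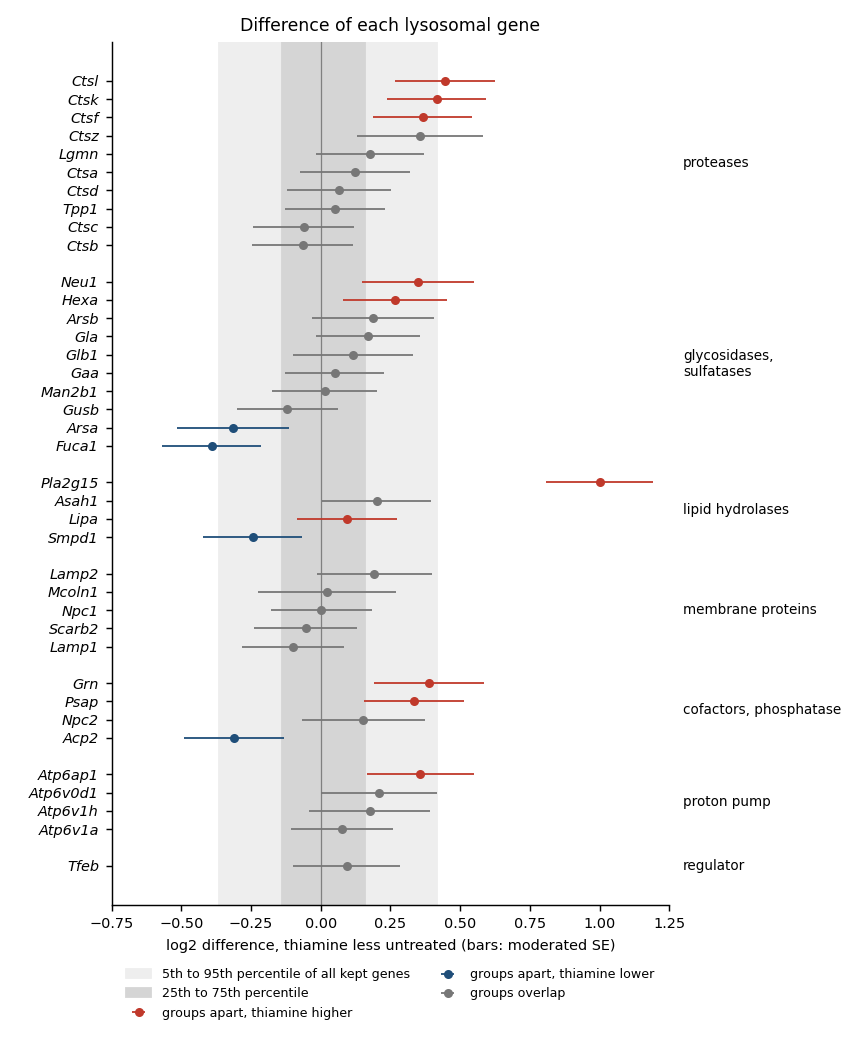
Log2 difference, thiamine less untreated (horizontal axis), of each measured lysosomal gene, with bars for the moderated SE (n = 2 per group) and grey bands for the spread of all kept genes (red and blue, groups apart with thiamine higher and lower; grey, overlap). Pla2g15 at 1.0 lies far outside the band from the 5th to the 95th percentile (-0.37 to 0.42), Ctsl at 0.45 lies just above it, Ctsk at 0.42 sits at its edge, and Fuca1 at -0.39 lies just below it.

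Among the proteases, 8 of 10 measured genes had a positive difference and 2 a negative one. Their median was 0.15. Groups did not overlap for 3 higher and 0 lower genes of the 10, against 18.6% and 18.9% of all genes. The 3 were cysteine cathepsins. Ctsl, a cathepsin that degrades bulk protein in the lysosome, read 10.70 and 10.84 in thiamine rats 1 and 2 and 10.35 and 10.29 in untreated rats 1 and 2. Both thiamine livers were above both untreated ones, with a difference of 0.45 ± 0.18 (1.36-fold; limma, unadjusted p = 0.030, adjusted p = 0.643). The spot of Ctsl on the array of untreated rat 2 was flagged as contaminated. Ctsk, a collagen-degrading cathepsin best known from bone, read 8.46 and 8.47 in the thiamine rats and 8.10 and 8.00 in the untreated rats. The thiamine rats were nearly equal and the difference was 0.42 ± 0.18 (1.33-fold; limma, unadjusted p = 0.039, adjusted p = 0.699). Ctsf, a further papain-family cathepsin, read 11.36 and 11.26 in the thiamine rats and 10.95 and 10.93 in the untreated rats, a difference of 0.37 ± 0.18 (limma, adjusted p = 0.767). For these 3 genes the gap between the closest rats of opposite groups, from 0.30 to 0.36, was wider than the gap within either group, which was at most 0.13.

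The remaining proteases did not separate the groups. Ctsz, a carboxypeptidase, read 8.78 and 8.15 in thiamine rats 1 and 2 and 8.02 and 8.20 in untreated rats 1 and 2, and its difference of 0.36 ± 0.23 rested on thiamine rat 1; without that rat it was 0.039. Lgmn, the asparaginyl endopeptidase that processes other cathepsins, read 8.46, 8.15, 8.23 and 8.03 in the same order of rats, a difference of 0.18 ± 0.19. Ctsa, a serine carboxypeptidase that also protects Glb1 and Neu1 in a complex, was at 0.12 ± 0.20, with untreated rat 2 the low one, at 12.30, and untreated rat 1 the highest, at 12.70. The tripeptidyl peptidase Tpp1 was at 0.052 ± 0.18. Ctsb, a cathepsin abundant in liver, read 14.63 and 14.61 in the thiamine rats and 14.60 and 14.78 in the untreated rats, a difference of -0.065 ± 0.18. Its 95% interval, from -0.46 to 0.33, leaves room for a change of either sign. Ctsc, which activates granule serine proteases, was at -0.061 ± 0.18 on its brighter probe and at 0.071 on the other. Ctsd, the aspartic cathepsin, was at 0.066 ± 0.19 on its brighter probe with overlapping groups. On its dimmer probe Ctsd read 9.43 and 9.56 against 9.18 and 9.21, a difference of 0.30 without overlap, so its probes do not give the same picture. The spot of the dimmer probe on the array of untreated rat 2 was flagged as contaminated.

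Glycosidases and sulfatases, which strip sugars and sulfate groups from glycoproteins, glycolipids and glycosaminoglycans, had differences of both signs. Of 10 measured genes, 7 had a positive and 3 a negative difference (median 0.083), and groups did not overlap for 2 higher and 2 lower genes, shares near the 18.6% and 18.9% of all genes. The sialidase Neu1 read 8.51 and 8.60 in thiamine rats 1 and 2 and 8.00 and 8.42 in untreated rats 1 and 2, a difference of 0.35 ± 0.20. The hexosaminidase subunit Hexa read 11.79 and 11.65 against 11.33 and 11.58, a difference of 0.27 ± 0.19. In both genes untreated rat 1 was the lowest and the closest rats of opposite groups were less far apart, by 0.091 for Neu1 and 0.075 for Hexa. The fucosidase Fuca1 had the opposite pattern, at 10.55 and 10.47 in the thiamine rats and 10.94 and 10.86 in the untreated rats, a difference of -0.39 ± 0.18 (0.76-fold; limma, unadjusted p = 0.051, adjusted p = 0.745). Its rats were within 0.088 of each other in each group and 0.31 apart between groups, the lowest difference on the list. The arylsulfatase Arsa was lower without overlap on both probes, by -0.31 ± 0.20 and -0.23 ± 0.18, and untreated rat 2 was its highest at 9.54 on the brighter one.

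In the other enzymes of this class the rats of the groups were intermingled on the brightest probe. The sulfatase Arsb was at 0.19 ± 0.22, the alpha-galactosidase Gla at 0.17 ± 0.19, the beta-galactosidase Glb1 at 0.12 ± 0.22 and the acid alpha-glucosidase Gaa, which breaks down lysosomal glycogen, at 0.050 ± 0.18. For Gaa, whose 4 values ran from 10.68 to 10.81, the 95% interval was -0.34 to 0.44. The mannosidase Man2b1 was at 0.014 ± 0.19 on its brighter probe, and the glucuronidase Gusb at -0.12 ± 0.18. The dimmer probe of Man2b1 was at -0.21 without overlap, and was flagged as contaminated on the array of thiamine rat 2. The dimmer probe of Glb1 was at 0.12, also without overlap, though its closest rats differed by 0.0042 only. That of Gla was at 0.38 with overlap, and was not above background in untreated rat 2.

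The other lipid hydrolases had much smaller differences than Pla2g15, in both directions. The lysosomal acid lipase Lipa, which frees cholesterol and fatty acids from lipoprotein cores, read 12.79 and 12.91 in thiamine rats 1 and 2 and 12.76 and 12.77 in untreated rats 1 and 2. The spot of Lipa on the array of untreated rat 1 was flagged as contaminated. The groups were apart, but by 0.028 only, and the difference was 0.094 ± 0.18. The 95% interval of this difference, from -0.30 to 0.49, lies wholly below that of Pla2g15. The acid sphingomyelinase Smpd1 was lower, at 12.32 and 12.27 against 12.56 and 12.51, a difference of -0.24 ± 0.18 without overlap. The acid ceramidase Asah1 read 8.98 and 8.85 against 8.90 and 8.53 on its brighter probe, a difference of 0.20 ± 0.20 with overlap. Its 95% interval, from -0.23 to 0.63, overlaps that of Pla2g15, which begins at 0.58. The difference of Pla2g15 was known beforehand, so these intervals do not test whether it stands apart. A second probe of Asah1 was well above background on both thiamine arrays and on neither untreated one, so it was kept through the thiamine arrays only. It was at 0.33 ± 0.18, or 1.26-fold, with a 95% interval from -0.065 to 0.72.

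**Figure D3:**
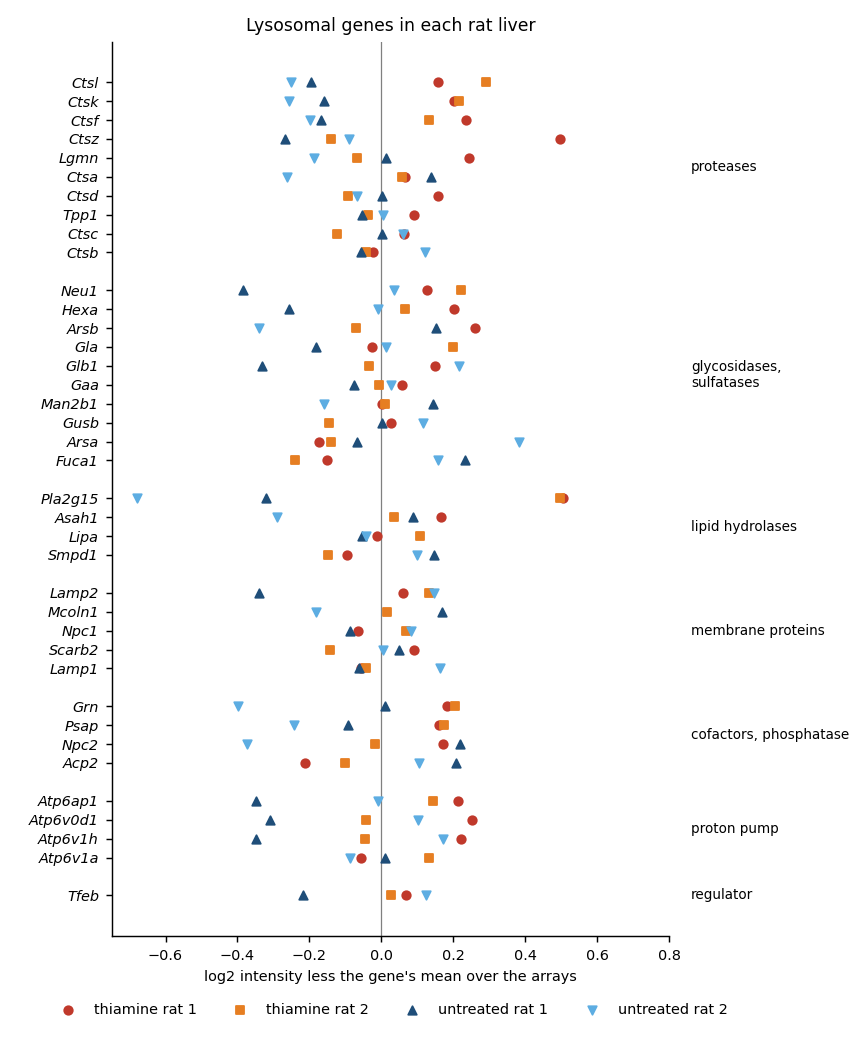
Log2 intensity of each measured lysosomal gene in each rat, less the gene's mean over the arrays (horizontal axis); red and orange are thiamine rats 1 and 2, dark and light blue untreated rats 1 and 2, and Mcoln1 has 3 arrays. In Pla2g15, Ctsl, Ctsk and Ctsf both thiamine points lie to the right of both untreated ones, in Fuca1, Acp2, Smpd1 and Arsa to the left, and in most other genes the points are intermingled.

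Of the 4 genes of cofactors and a phosphatase, 2 were apart and higher and 1 apart and lower, against 18.6% and 18.9% of all genes. Psap and Grn were higher without overlap on each of their probes. Psap, the precursor of the saposins that present glycolipids to lysosomal enzymes, read 12.27 and 12.28 in thiamine rats 1 and 2 and 12.02 and 11.87 in untreated rats 1 and 2. The difference was 0.33 ± 0.18 on this probe and 0.20 ± 0.18 on the other. Grn, the precursor of the granulins, read 10.70 and 10.72 against 10.53 and 10.12, a difference of 0.39 ± 0.20, and its second probe gave 0.49 ± 0.18. The brighter Grn probe was flagged as contaminated on the array of thiamine rat 1. Untreated rat 2 was the lowest in both genes. The cholesterol carrier Npc2 was at 0.15 ± 0.22 with values from 11.77 in untreated rat 2 to 12.36 in untreated rat 1. The lysosomal acid phosphatase Acp2 read 13.01 and 13.12 against 13.43 and 13.33, a difference of -0.31 ± 0.18, and its second probe was at -0.13. Neither probe had overlap, though on the second the closest rats differed by -0.0038 only.

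The membrane proteins of the lysosome showed no separation. Of the 5 genes, 3 lay above 0 and 2 below (median 0.0029). All 5 had overlap, as did most of all genes (5488 of 8779). Lamp1 and Lamp2, the abundant glycoproteins that line the membrane, were at -0.10 ± 0.18 and 0.19 ± 0.21. Scarb2, the receptor that carries glucocerebrosidase, was at -0.054 ± 0.18 and the sterol exporter Npc1 at 0.0029 ± 0.18. The calcium channel Mcoln1 was masked on the array of thiamine rat 1, so its 0.023 ± 0.25 rests on 1 thiamine rat and 2 untreated rats.

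All 4 listed genes of the proton pump were above 0, with a median of 0.19. Groups did not overlap for 1 of the 4, the accessory subunit Atp6ap1, where 18.6% of all genes were apart and higher. Atp6ap1 read 10.77 and 10.70 in thiamine rats 1 and 2 and 10.21 and 10.55 in untreated rats 1 and 2, a difference of 0.36 ± 0.19. The subunit Atp6v0d1 was at 0.21 ± 0.21, the regulatory subunit Atp6v1h at 0.18 ± 0.22, and the ATP-binding subunit Atp6v1a at 0.076 ± 0.18, with a second Atp6v1a probe at -0.072. Untreated rat 1 was the lowest rat for Atp6ap1, Atp6v0d1 and Atp6v1h, by 0.27 to 0.34 below the next. The same rat was the lowest for Tfeb, whose values were 8.88 and 8.84 in the thiamine rats and 8.59 and 8.93 in the untreated rats. The difference of Tfeb was 0.094 ± 0.19. Low values in untreated rat 1 were not particular to the pump. Less untreated rat 2, this rat was at -0.55 for Glb1 and -0.49 for Lamp2, though 19 of the 38 listed genes were higher in it. Each rat had its own array, so rat and array cannot be told apart. Probes of the 3 pump genes carry close numbers (271054, 269026 and 271025), and an effect of place on the array was not tested.

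TFEB and its relatives bind a palindrome around the letters CACGTG, which was looked for in the RefSeq promoters of the listed genes (GRCr8; 250 bases before to 50 after the start). A promoter was matched for 33 of the 41 genes. CACGTG was found in 7 of the 33, or 21.2%, against 6.65% of all 27457 promoters of this length and 9.35% of those of the kept genes. The longer palindrome TCACGTGA, which contains it, was found in 4 of the 33, or 12.1%, against 0.867% of all promoters and 1.73% of those of the kept genes. TCACGTGA with a G before and a C after it was found in 0 of the 33, against 0.277% and 0.532%. Being palindromes, they read alike on both strands. The windows below are those of a protease, a glycosidase, a membrane protein and a pump subunit, shown as 1 example for each of 4 roles; the capitals mark the palindrome, and each is written 5′ to 3′ along the gene's strand. The Lamp1 window ends in a further copy, which is left in lower case.
Ctsf, chr1:211581993-211582052, plus strand: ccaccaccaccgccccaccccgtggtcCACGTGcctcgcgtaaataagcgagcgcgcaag
Gaa, chr10:105028261-105028320, plus strand: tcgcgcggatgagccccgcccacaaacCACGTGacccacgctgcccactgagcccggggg
Lamp1, chr16:83075096-83075155, minus strand: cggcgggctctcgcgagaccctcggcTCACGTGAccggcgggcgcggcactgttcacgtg
Atp6v0d1, chr19:50357268-50357327, minus strand: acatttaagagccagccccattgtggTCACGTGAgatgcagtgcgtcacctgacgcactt

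The differences of genes with the motif lay within the wider range of those without it, and no test between them was run. The 7 genes with CACGTG (Ctsd, Ctsf, Gaa, Glb1, Lamp1, Mcoln1 and Atp6v0d1) had differences from -0.10 to 0.37 with a median of 0.066 and 6 of 7 above 0. The 24 measured genes whose window lacks it had differences from -0.39 to 1.0 with a median of 0.11 and 18 of 24 above 0. Lamp1, which has 5 copies before its start, was at -0.10. Pla2g15, the gene with the widest separation, has none in its window, of which the 250 bases before the start are given here because this gene carries the main contrast.
Pla2g15, chr19:50960406-50960655, plus strand: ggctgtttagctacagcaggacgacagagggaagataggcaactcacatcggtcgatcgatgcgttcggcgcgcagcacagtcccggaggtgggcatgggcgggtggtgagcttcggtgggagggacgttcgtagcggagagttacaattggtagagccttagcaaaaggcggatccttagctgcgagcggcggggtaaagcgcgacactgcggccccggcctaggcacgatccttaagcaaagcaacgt
No capitals appear in it because the palindrome is absent from these letters.

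Other genes of the lysosome and its supply had no common direction. Over 111 measured genes of 7 further lists, 55 lay above 0 and 56 below (median -0.0032), and 20 were apart and higher and 25 apart and lower, shares near the 18.6% and 18.9% of all genes. Other hydrolases were at a median of 0.052, with 12 of 20 higher, and other membrane proteins and transporters at -0.0092, with 8 of 19 higher. Naaa, an amidase that cleaves N-acylethanolamines, was not well above background in the thiamine livers, so it was kept through the untreated arrays only. It was 1.40-fold higher in the untreated livers, where a thiamine signal under the lowest signal above background of its array was raised to that level. The sialic acid exporter Slc17a5 was at 0.50 ± 0.19 and Tmem9 at -0.85 ± 0.18. Tmem9 read 8.66 and 8.65 in the thiamine rats and 9.51 and 9.50 in the untreated rats, and was above background on 3 of the 4 arrays. Genes of enzyme delivery had a median of -0.0074, with 7 of 14 higher and the mannose 6-phosphate receptor Igf2r at -0.22 ± 0.20. The other 13 pump subunits split into 7 higher and 6 lower, with a median of 0.015, from Tcirg1 at -0.57 ± 0.18 to Atp6v0e1 at 0.43 ± 0.21. The rest of the pump was thus split, where the 4 listed genes all lay above 0. In the list of nutrient sensing 9 of 18 were higher (median -0.016), with the GTPase Rraga at 0.39 ± 0.18. Of 21 autophagy genes 10 were higher (median -0.042), led by Gabarapl1 at 0.66 ± 0.18, with the cargo receptor Sqstm1 at 0.38 ± 0.21. The cargo receptor Nbr1 was above background on the thiamine arrays only, so it was kept through that group. With its untreated signals raised in the same way as for Naaa, Nbr1 was at least 1.15-fold higher in the thiamine livers. Of 6 cathepsin inhibitors 2 were higher and 4 lower (median -0.0096). No gene of these lists passed the adjusted threshold (limma, lowest adjusted p = 0.216).

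Markers of Kupffer cells, which are rich in lysosomes, also read higher in the thiamine livers. The list held 23 genes, of which 15 were measured. The difference was positive for 14 of the 15 and negative for Cd14 (median 0.56). Of the 15, 7 were apart and higher and 1 apart and lower, against 18.6% and 18.9% of all genes. Their summed intensity, on the linear scale, was 41347 and 29399 in thiamine rats 1 and 2 and 29841 and 21058 in untreated rats 1 and 2, so that thiamine rat 2 and untreated rat 1 were level. Clec4f, the marker that defines rat and mouse Kupffer cells, was above background on all 4 arrays, at 13.42 and 13.01 against 13.02 and 12.17, while Fcer1g was above background on none and Lyz2 on 1. The lysosomal cysteine protease Ctss, which is on this marker list, read 10.66 and 9.97 against 9.61 and 9.19, a difference of 0.92 ± 0.25. Of 7 measured markers of the liver endothelium 7 were higher, with a median of 0.28 and a summed intensity of 7077 and 6566 in the thiamine rats and 5068 and 5439 in the untreated rats. The part of these cells in the upward values of the lysosomal list was not tested.

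The Kupffer markers varied more between rats of the same group than the lysosomal genes did, with a median absolute gap between the thiamine rats of 0.61 against 0.12. Between thiamine rats 1 and 2 the median difference of the markers was 0.61, with 14 of 15 higher in rat 1. The difference was 0.0086 for Pla2g15, -0.13 for Ctsl, -0.014 for Ctsk, 0.10 for Ctsf, -0.012 for Psap and -0.025 for Grn. These genes have groups that do not overlap, and picking them for that favours small gaps within a group. Of the 10 measured proteases, 8 were higher in thiamine rat 1 than in rat 2, as the markers were (median 0.115), with Ctsz at 0.64 and Lgmn at 0.31. Over the whole list the median was 0.050, with 23 genes higher in rat 1. Between thiamine rat 2 and untreated rat 1 the median difference of the markers was -0.0067, with 7 of 15 higher. In the same pair of rats the proteases had a median difference of 0.016, with 6 of 10 higher, and the whole list one of 0.096. Pla2g15 differed by 0.82, Ctsl by 0.49, Ctsk by 0.37 and Ctsf by 0.30 in that pair; these genes were singled out because their groups do not overlap, which makes every such value positive. Between untreated rats 1 and 2 the markers differed by a median of 0.42, while that of the whole list was 0.0085, with 19 of 38 higher in rat 1. In that pair the median was 0.042 for the proteases, -0.16 for the glycosidases and sulfatases and -0.375 for the listed pump genes. Single genes ranged from Grn at 0.41, Npc2 at 0.59 and Pla2g15 at 0.36 through Ctsl at 0.055 and Ctsf at 0.028 to Lamp2 at -0.49 and Glb1 at -0.55.

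**Figure D4:**
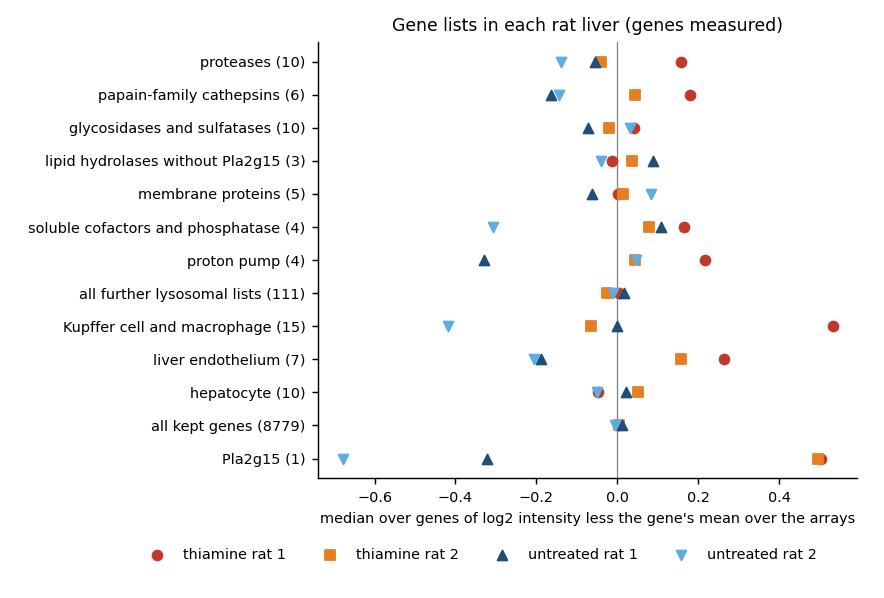
Median over the genes of a list of the log2 intensity less each gene's mean over the arrays (horizontal axis), 1 point per rat, with the number of genes measured in brackets. Kupffer cell markers run from -0.42 in untreated rat 2 to 0.53 in thiamine rat 1 with the other rats near 0, whereas for Pla2g15 both thiamine rats lie together on the right.

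The values of the list differed from rat to rat, and thiamine rat 1 lay furthest above the untreated rats. Its median difference from untreated rats 1 and 2 was 0.14 and 0.087, with 29 and 25 genes higher, of 37 with a value in it. For thiamine rat 2 the medians were 0.096 and 0.030, with 23 and 19 of 38 higher, and without Pla2g15 the latter was -0.015. The proteases of thiamine rat 1 were 0.19 and 0.37 above the untreated rats in the median, with 9 of 10 higher in each case, and those of thiamine rat 2 were 0.016 and 0.047 above, with 6 and 5 of 10. Without thiamine rat 1 the median of the list was 0.051, with 27 of 38 higher, and that of the proteases 0.029. Without untreated rat 1 the median of the list was 0.088, with 22 of 37 higher. The difference of Pla2g15 was 1.0 without either thiamine rat, 1.18 without untreated rat 1 and 0.82 without untreated rat 2. Of all listed genes, Fuca1, Smpd1, Acp2, Psap, Ctsf, Ctsk and Ctsl also stayed within 1.5 times their difference when any 1 rat was left out. The groups of these genes and of Pla2g15 do not overlap, so leaving out a rat could not turn their sign. Others leaned on 1 rat: without untreated rat 2 Grn stood at 0.18 and Arsa at -0.090, and without untreated rat 1 Neu1 stood at 0.14, Hexa at 0.14 and Atp6ap1 at 0.19.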

How the data were processed

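The scanner reports of 4 CodeLink arrays (1 colour, 1 rat each) and a deposited table of values were used. Per the file headers, the reports come from CodeLink Expression Analysis 5.0.0.31312, and they give linear intensity of spot and local background with a quality flag, not normalized. The deposited table holds intensity values in the same order within each array (lowest Spearman's rho 1), with medians from 147.483 to 147.506; the authors' scaling of it is not stated in these sources, and it served only as an alternative.

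Background was corrected with normexp (offset 50) over 35129 features, 1280 control features were left out, and log2 intensities of 33849 probes were quantile normalized. Masked spots, 55 to 67 per array, were missing, and other flagged spots were kept. A probe was kept if above background on both arrays of a group. Gene names are those of the array's annotation, brought to RefSeq symbols (GRCr8) by gene identifier: 16753 probes had 1 symbol, 165 several and 16931 none, and 13 that conflicted with their RefSeq accession were left unnamed. A gene is shown by its brightest kept probe. The test of thiamine against untreated was that of limma 3.58.1 (R 4.3.3), with lmFit, eBayes and p-values adjusted by Benjamini-Hochberg over kept probes at a threshold of 0.05. Each probe had 2 residual degrees of freedom, which moderation brought to 10.8, so every printed SE borrows from the other probes, and p-values measure only the spread between these rats. The fit was tested on simulated data. All listed genes may be named, and of further lists up to 5 by unadjusted p, besides those singled out from the marker lists after their values were seen. Members and lists were chosen with earlier results of these data known; no list test was run. Marker lists of stellate cells, bile duct, lymphocytes and neutrophils had medians of 0.073 (6 genes), -0.0058 (2 genes) and 0.23 (5 genes), the last for lymphocytes and neutrophils together, and hepatocyte markers -0.0047 (10 genes).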

Additional observations from a re-analysis of the deposited data

How the results depend on the processing

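With all 4 arrays, the median of the list and its count of higher genes stayed close to their values under other background corrections, an offset of 16, median scaling, other filters, flagged spots left out, the deposited table and the mean over a gene's probes: 28 to 30 listed genes were higher and the list's median ran from 0.12 to 0.14. The median of the glycosidases and sulfatases moved more, to 0.13 with the deposited table and 0.050 with no filter, and Man2b1 stood at 0.13 with the deposited table. Median scaling moved the median of all genes to 0.024. The labels number the rats but do not say that same-numbered rats form a pair. Over probes, the correlation of deviations of same-numbered rats was -0.074. With 1 gap between rats in each group, this value cannot settle whether they share a batch. The fit with the replicate block, with 1 residual degree of freedom per probe, called 126 probes in place of 0. Pla2g15 was among them (difference 1.0, adjusted p = 0.0166 by limma). For Pla2g15 the adjusted p of limma ran from 0.0166 to 0.947 over the alternatives with a test. When single rats were left out, limma called 1 to 67 probes, 22 to 28 listed genes were higher, and the medians ran from 0.051 to 0.16 for the list, 0.029 to 0.27 for proteases, 0.0205 to 0.0693 for glycosidases and sulfatases and 0.0122 to 0.14 for the lipid hydrolases without Pla2g15. Where 1 rat stands for a group, the fit takes the other group's spread for it.

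Of 476 single-gene values under alternatives, those of Pla2g15 not counted, 455 kept their sign, 0 passed the threshold and 21, from 17 genes, turned it. With the mean over probes Ctsc was at 0.0052, Man2b1 at -0.0978 and Npc1 at -0.0128. Without single rats the ranges were -0.0767 to 0.32 for Ctsa, -0.15 to 0.0243 for Ctsb, -0.15 to 0.0315 for Ctsc, -0.0591 to 0.19 for Ctsd, -0.0118 to 0.12 for Tpp1, -0.0006 to 0.10 for Gaa, -0.16 to 0.39 for Glb1, -0.14 to 0.17 for Man2b1, -0.0573 to 0.43 for Arsb, -0.21 to 0.0122 for Lamp1, -0.0509 to 0.44 for Lamp2, -0.17 to 0.0632 for Scarb2, -0.0815 to 0.0873 for Npc1, -0.14 to 0.45 for Npc2, -0.0198 to 0.17 for Atp6v1a, -0.0842 to 0.44 for Atp6v1h and -0.0776 to 0.26 for Tfeb. The cause of these turns was not tested. The probes of Ctsh and Galns, at the level of the background, have no usable value.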
